A study of Meloidogyne incognita with 75 samples.

Results

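Third-stage juveniles of the southern root-knot nematode, Meloidogyne incognita, were compared with settled second-stage juveniles, with 14 libraries titled J3 set against 12 titled par_J2, 26 of the 75 single-nematode libraries of the series. The members were chosen by their titles alone. Each library came from 1 animal, picked and staged by its shape and copied to cDNA by a low-input Smart-seq2 protocol. The labels do not spell out what par stands for, the word settled being a working name, and give no host plant, days after infection, sex or nematode line for either stage. The later course was followed in J4 (n = 8), J4_moulting (n = 14), J4_female (n = 8), male (n = 7) and female (n = 7), and the earlier state in pre_J2 (n = 5), juveniles hatched from eggs in vitro. The male libraries carry a stage tag that reads J4_male.

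In a root-knot nematode the second-stage juvenile is the infective form. It enters a root, becomes sedentary and feeds through its stylet on giant cells that it induces in the host. It then swells and moults through later juvenile stages (J3 and J4), which lack a working stylet and do not feed, and the adult female takes up feeding again while the male becomes worm-shaped and leaves the root. Because identifiers in the files are not paired with gene names, no function is given to any transcript, and the stage labels could not be checked against marker genes.

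Libraries held 7368670 to 22172586 counts in J3 and 6415093 to 24468798 in par_J2. Levels are CPM, the counts scaled to a fixed library total, not corrected for transcript length, so each transcript is compared only with itself. Counts of any 2 libraries of a stage differed by far more than sampling noise (chi-square of at least 45.9 per degree of freedom). Sequencing batches and dates are missing from the labels, and stage and batch cannot be told apart. In whole animals more cells of a type and more RNA per cell cannot be told apart either.

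In the edgeR fit used here, with a filter on low counts, a few transcripts were much higher in J3 and many were moderately lower. The balance of rises and falls depended on the tool, the filter and the design of the fit. Of 25685 transcripts tested with edgeR's quasi-likelihood test, 277 were called higher in J3 (1.08% of those tested) and 737 lower (2.87%), taking a change of 2-fold or more with a Benjamini-Hochberg adjusted p below 0.05 as a call. They are called the raised set and the lowered set in what follows. The raised set came from 276 genes and the lowered set from 734. In the raised set 193 of 277 changes, 69.7%, were 4-fold or more and 58 were 16-fold or more, with quartiles of the log2 fold change at 1.81 and 3.82. In the lowered set 186 of 737, 25.2%, were 4-fold or more and 11 were 16-fold or more, with quartiles at -1.27 and -2.01. With DESeq2 size factors 297 were higher and 516 lower, and with total counts alone 217 and 876. These scalings moved the median log2 fold change of all transcripts tested to 0.14 and to -0.09, against 0.03 in the fit used here. Most calls were decreases under these 3 scalings. The balance turned round with other tools, filters and designs of the fit. DESeq2 gave 1024 increases and 817 decreases, and limma-voom gave 959 and 182. In edgeR, fitting the 75 libraries together gave 3238 increases and 896 decreases, and testing rarely counted transcripts too gave 4925 and 1218. With the replicate number as a block, edgeR gave 281 increases and 60 decreases.

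The 2 sets differed in where they stood before the change. The median raised transcript averaged 18.0 CPM in J3 and 2.70 CPM in par_J2, and 93 of the 277 (33.6%, against 14.5% of all transcripts tested) had a count in 6 or fewer of the 12 par_J2 libraries. The median lowered transcript averaged 16.3 CPM in J3 and 53.1 CPM in par_J2. Of the 737 lowered transcripts, 678 (92.0%) had a count in all 14 J3 libraries and 690 (93.6%) in all 12 par_J2 libraries. Of the 277 raised ones, 206 (74.4%) had a count in all J3 libraries and 116 (41.9%) in all par_J2 libraries, close to the 73.8% and 42.6% of all transcripts tested. These shares follow in part from the levels at which the sets were called and are a description. The groups overlapped for nearly all of them, since only 3 raised transcripts (0.0117% of those tested) lay above every par_J2 library in all J3 libraries and only 3 lowered ones (0.0117%) lay below.

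**Figure D1:**
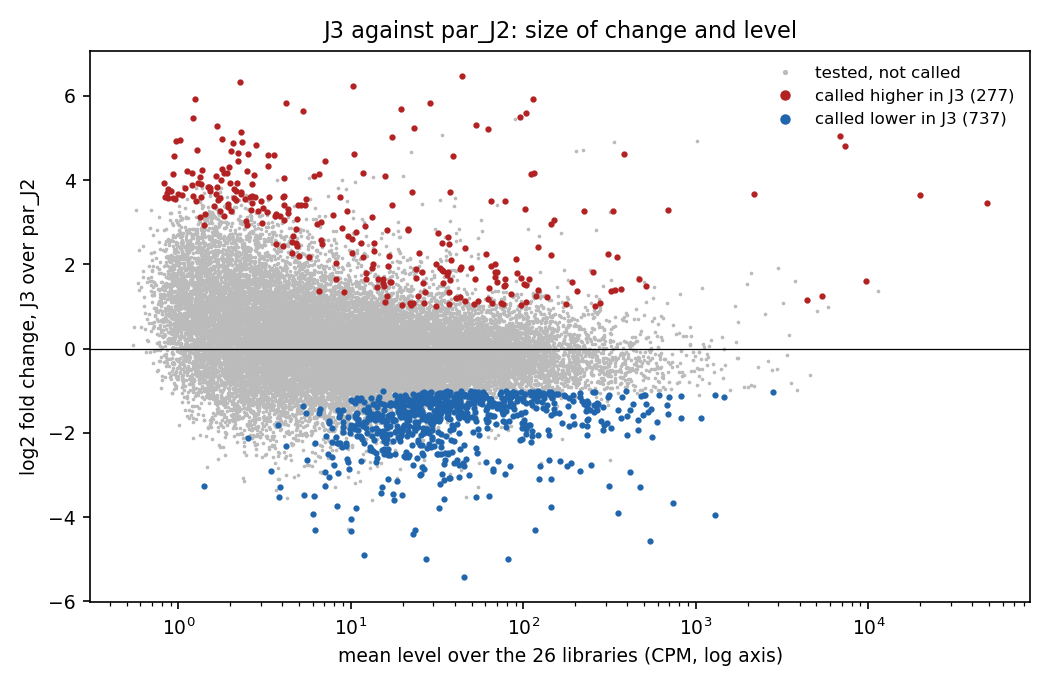
Each point is a transcript tested in J3 against par_J2, with its mean CPM over the 26 libraries on a log axis and its log2 fold change, J3 over par_J2. The 277 transcripts called higher (red) reach a log2 fold change of 6.48 and spread over all levels, while the 737 called lower (blue) lie mostly above 10 CPM and close to the 2-fold limit.

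More transcripts were estimated as higher in J3 than as lower, while more of the lower ones passed the test. Among transcripts with an estimated change of 2-fold to 4-fold, 2976 were higher in J3 and 2247 lower, but 84 of the higher ones (2.82%) and 551 of the lower ones (24.5%) were called. For changes of 4-fold to 16-fold, 135 of 1162 higher transcripts (11.6%) and 175 of 381 lower ones (45.9%) were called. At 16-fold or more, 58 of 69 higher and 11 of 12 lower transcripts were called. The median standard error of the log2 fold change was 0.90 for the higher and 0.60 for the lower transcripts between 2-fold and 4-fold. The higher ones were also the less abundant, with a median of 4.42 CPM in J3 against 16.7 CPM in par_J2 for the lower ones. Rises of 2-fold to 4-fold were thus called less often than falls of that size. The larger changes in the raised set than in the lowered set follow in part from this.

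Level and direction went together across all transcripts tested. The median log2 fold change was 1.11 for the 536 transcripts under 1 CPM over the 26 libraries, 0.27 for the 12673 from 1 to 10 CPM, -0.16 for the 10815 from 10 to 100 CPM and -0.24 for the 1661 at 100 CPM or more. The filter keeps a transcript by the number of libraries with enough counts. A rare transcript can thus pass more easily through the 14 J3 than through the 12 par_J2 libraries. The part of this in the medians of the rare classes was not tested. Lowered transcripts made up 0.418% of those tested from 1 to 10 CPM, 5.05% from 10 to 100 CPM and 8.31% at 100 CPM or more. Raised transcripts made up 0.955%, 0.952% and 2.47% of the same classes. Without the filter on low counts the fit called 4925 transcripts higher and 1218 lower, and 4405 of the 4925 had not been tested before. These 4405 were counted in a median of 5 of the 14 J3 libraries and 0 of the 12 par_J2 libraries, at a median of 0.201 CPM in J3, so the number called higher depends on whether rarely counted transcripts are tested.

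More transcripts were detected in J3 animals. With every library thinned to 3000000 counts, J3 libraries held 30683 ± 2669 transcripts with a count (SD, n = 14) and par_J2 libraries 23017 ± 3681 (SD, n = 12), a difference of 7665 (two-sided permutation test of 100000 resamples, p = 2e-05, which is the lowest value possible). The groups overlapped, as 2 par_J2 libraries lay above the lowest J3 library and 6 J3 libraries lay below the highest par_J2 library. Without par_J2 replicates 10 to 12, described below, par_J2 averaged 21413 ± 2457 (SD, n = 9) and the groups did not overlap, which the removal itself fixes, since these 3 held the most transcripts of their stage. The part of this wider detection in the fold changes of rare transcripts was not tested.

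Transcripts present in more J3 animals were found by a separate test on presence. A transcript was taken as present in a library with 3 or more counts of the thinned 3000000, and the numbers of libraries were compared by Fisher's exact test. Of 30436 transcripts, 236 were present in more J3 libraries (0.775%) and 2 in more par_J2 libraries (0.00657%) at an adjusted p under 0.05. The 236 were present in a median of 14 of 14 J3 and 3 of 12 par_J2 libraries, 139 of them were present in all 14 J3 libraries and 36 in no par_J2 library. They averaged a median of 4.05 CPM in J3 and 1.18 CPM in par_J2, and 39 of them belonged to the raised set. With 1 thinned count as the limit, 1239 transcripts were present in more J3 libraries, and with 1 CPM of the unthinned counts 730. Without par_J2 replicates 10 to 12 there were 2235, and 16 in more par_J2 libraries.

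Among transcripts outside the fold-change test, the lead was taken by Mi_36313.1 for J3 and Mi_17607.1 for par_J2. Mi_36313.1 ran from 0.133 to 8.91 CPM in J3 with a median of 2.67, and from 0 to 0.468 CPM in par_J2 with a median of 0. It was present in 12 of 14 J3 libraries and 0 of 12 par_J2 libraries by the limit of 3 thinned counts (Fisher's exact test, adjusted p = 0.0236). Mi_17607.1 was present in 0 of 14 J3 libraries and 8 of 12 par_J2 libraries (Fisher's exact test, adjusted p = 0.0405), but with 1 thinned count as the limit the adjusted p was 0.214. Its level ran from 0 to 0.564 CPM in J3 with a median of 0, and from 0 to 16.4 CPM in par_J2 with a median of 2.22. All libraries of a stage together held 5 counts of it in J4, 17 in J4_moulting, 1 in J4_female and 0 in pre_J2, male and female.

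The presence of the 236 transcripts set the animals apart within par_J2. J3 libraries held 85.6 to 97.9% of them with a median of 95.1%, and par_J2 libraries 2.97 to 58.1% with a median of 11%. The 3 highest par_J2 libraries were replicates 10, 11 and 12 with 58.1, 55.9 and 42.4%, and the other 9 held at most 21.6%. In stages that the test did not use, the median was 85.2% in J4, 85.4% in J4_moulting, 69.3% in J4_female, 39.8% in male and 58.9% in female. The pre_J2 median lay above all but 2 of the par_J2 animals. The same share over all transcripts tested for presence was not counted. Over the full table, the median number of transcripts with 3 or more thinned counts was 28622 in J4 and 27319.5 in J4_moulting. That number was 24297 in J4_female, 21275 in male, 21152 in female and 19168 in pre_J2. General detection thus differed between stages too, and its part in the shares of the 236 was not tested. The test chose the 236 for presence in more J3 than par_J2 libraries, so the difference between these 2 stages is fixed by the choice. A stage that the test did not use then tends to lie above par_J2. Only the spread within par_J2 is of interest here, and general detection differed there too. Replicates 10, 11 and 12 held 25003, 26064 and 23325 transcripts with 3 or more thinned counts, against 16322 to 22506 in the other 9.

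The counts of the raised set lay in very few transcripts. In J3, 2 of the 277 held 61.4% of the set's counts and 10 held 91.7%. In par_J2 the lowered set was spread widely, with 18.9% of its counts in 10 transcripts, and 62 members together reached the middle of its total. The 4 transcripts described next were taken by the largest CPM in the higher stage, so their place in the lists is a matter of selection.

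Mi_00696.1, the raised transcript with the most counts, ran from 10518 to 213005 CPM in J3 with a median of 47881, and from 555.5 to 62439 CPM in par_J2 with a median of 3348. All J3 animals therefore lay above 10 of the 12 par_J2 animals, and the overlap came from par_J2 replicates 10 and 12, at 14484 and 62439 CPM. The log2 fold change was 3.47 with a standard error of 0.74 (edgeR adjusted p = 0.00731).

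Mi_26885.1 showed the same spread between animals. It ran from 2457 to 85578 CPM in J3 with a median of 23117, and from 89.0 to 24868 CPM in par_J2 with a median of 622.9. Only par_J2 replicates 5, 10 and 12, at 2727, 5150 and 24868 CPM, lay above the lowest J3 animal. The log2 fold change was 3.66 with a standard error of 0.89 (edgeR adjusted p = 0.0157).

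Mi_01326.1 is a lowered transcript that stayed abundant. It ran from 315.9 to 3241 CPM in J3 with a median of 1786, and from 2672 to 5325 CPM in par_J2 with a median of 3748. Only J3 replicates 3 and 13, at 3241 and 2724 CPM, reached into the par_J2 range. The log2 fold change of -1.02, with a standard error of 0.23, was at the 2-fold limit (edgeR adjusted p = 0.00853), and it missed that limit with DESeq2 size factors, at -0.91.

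Mi_00644.1 fell much further. It ran from 2.97 to 876.5 CPM in J3 with a median of 62.7, and from 76.1 to 7569 CPM in par_J2 with a median of 2172. All J3 animals lay below 10 of the 12 par_J2 animals, and the exceptions were again par_J2 replicates 10 and 12, at 454.2 and 76.1 CPM. The log2 fold change was -3.96 with a standard error of 0.77 (edgeR adjusted p = 0.00439).

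Animals of a stage differed widely in the 2 sets. The raised set held 6.55 to 36.6% of the counts of a J3 library with a median of 17.9%, and 0.736 to 11.6% of those of a par_J2 library with a median of 2.01%. The lowered set held 1.74 to 4.47% in J3 with a median of 2.84%, and 3.61 to 14.2% in par_J2 with a median of 10.2%. These shares were what the sets were chosen for, and only their spread within a stage is of interest here. Since shares of a library add up to a fixed total, the lowered set was also expressed as a share of the counts outside the raised set, where it held 2.45 to 5.04% in J3 and 4.08 to 14.4% in par_J2.

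Within J3, replicates 3, 10, 11, 12 and 13 had the lowest raised shares, 6.55, 8.48, 12.1, 12.2 and 7.80%. The same 5 animals had the highest lowered shares, 3.70, 4.47, 3.81, 4.43 and 4.34%, and 4 of them remained among the 5 highest when the raised set was left out of the total. At the other end, J3 replicates 6, 8 and 5 held 36.6, 35.3 and 30.1% of their counts in the raised set and 1.74, 1.93 and 2.53% in the lowered set, or 2.75, 2.98 and 3.62% outside the raised set. The orders did not match throughout: replicate 1 had a raised share of only 15.0% and the lowest lowered share outside the raised set, 2.45%. The order of the J3 animals by raised share also rested on 2 genes. Without the genes of Mi_00696.1 and Mi_26885.1 the raised set held 3.85 to 14.4% in J3 and 0.590 to 3.64% in par_J2. Replicate 9 was then lowest and replicate 2 highest, and replicate 5, at 5.01%, lay below replicates 11 and 13, at 6.21 and 6.42%.

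Within par_J2, replicates 10, 11 and 12 stood apart from the other 9. Their raised shares were 3.73, 4.22 and 11.6%, against 0.736 to 2.26% in the others. Their lowered shares were 4.47, 6.82 and 3.61%, against 9.21 to 14.2%. They also had the lowest totals of the stage, 6415093, 10311236 and 10108186 counts, and the most transcripts at the thinned depth. Replicate 12 lay inside the J3 range in both sets, in the raised set only through the genes of Mi_00696.1 and Mi_26885.1. Without these genes it held 2.64%, below the lowest J3 animal at 3.85%, and replicates 10 and 11 held 1.71 and 3.64%, against 0.590 to 1.79% in the other 9.

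**Figure D2:**
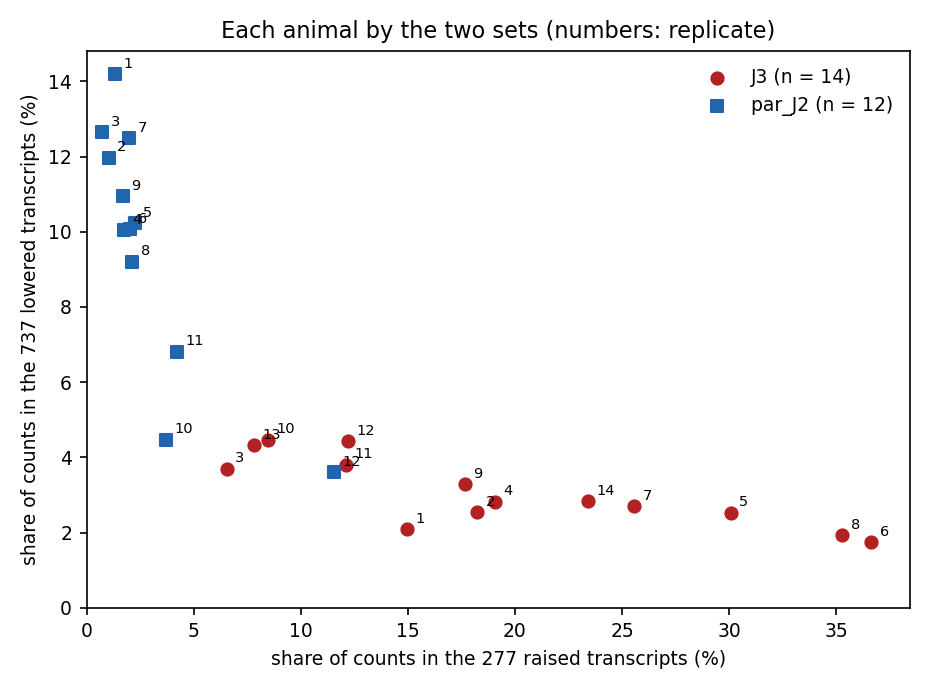
Each point is an animal, with the share of its counts in the 277 raised transcripts (horizontal axis, %) and in the 737 lowered transcripts (vertical axis, %), for J3 (red circles, n = 14) and par_J2 (blue squares, n = 12), with replicate numbers. Replicate 12 of par_J2, at 11.6 and 3.61%, lies among the J3 animals, and replicates 10 and 11 lie between the stages.

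The size of both lists rested on these animals. Leaving out par_J2 replicate 10, 11 or 12 raised the number called higher in J3 to 596, 511 and 431, while leaving out J3 replicate 5, 6 or 7 lowered it to 165, 170 and 175. The number higher by 4-fold or more, 193 with all animals, became 455, 392 and 305 without par_J2 replicate 10, 11 or 12, and 128, 106, 108 and 104 without J3 replicate 4, 5, 6 or 7. With all 3 par_J2 animals left out, 2049 transcripts were higher in J3 and 2150 lower, with 263 of the 277 and 736 of the 737 among them. The 3 were left out because of their levels in these sets, so the larger numbers lend no weight to the comparison. Of the raised transcripts 275 were also called by DESeq2 and 156 by limma-voom, and of the lowered ones 645 and 167.

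The later course of the sets was read from the mean level of each member per stage, beside the same for all 25685 transcripts tested. Comparisons with J3 and par_J2 themselves are a description, as those libraries chose the sets. The median raised transcript stood at 18.0 CPM in J3, 24.4 in J4, 8.26 in J4_moulting and 19.6 in J4_female, and then at 2.78 in male and 7.73 in female. The median of all transcripts tested was 8.63 CPM in J3, 12.1 in J4, 10.3 in J4_moulting, 10.6 in J4_female, 8.50 in male and 4.21 in female. A median over the set hides how single members moved. Relative to J3, the median over members of the log2 ratio of the stage means, with 0.1 CPM added, was 0.26 in J4 (0.32 over all transcripts tested), -0.25 in J4_moulting (0.13), 0.28 in J4_female (0.14), -2.89 in male (-0.37) and -1.02 in female (-1.15). In J4_moulting 85 of the 277 stood 2-fold or more below J3, 30.7%, against 10.8% of all transcripts tested, and in male 217 did, 78.3% against 36.5%.

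J3 was the stage of the highest mean level for only 35 of the 277 raised transcripts, 12.6%, against 5.04% of all transcripts tested. For 88 of them the highest stage was J4 (31.8% against 20.4%), for 50 J4_female (18.1% against 11%), for 46 female (16.6% against 3.81%) and for 33 J4_moulting (11.9% against 12%). Only 12 were highest in male (4.33% against 17.6%). A group sorted by its highest stage stands high in that stage by the sorting itself, so the levels that follow are a description. The 88 that were highest in J4 were rare in J3, at a median of 5.65 CPM, and stood at 21.5 CPM in J4 and 0.510 CPM in par_J2. The 35 that were highest in J3 stood at 54.0 CPM there, 37.5 in J4 and 8.64 in J4_moulting.

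Raised transcripts were also described by how many par_J2 animals had them, a split that the change itself helps to decide. The 93 counted in 6 or fewer par_J2 libraries had a median of 0.205 CPM in par_J2, 3.26 in J3, 6.84 in J4, 3.10 in J4_moulting, 4.26 in J4_female, 0.526 in male and 0.997 in female. The other 184 had a median of 11.6 CPM in par_J2, 39.0 in J3, 43.1 in J4, 18.7 in J4_moulting, 39.8 in J4_female, 5.78 in male and 29.6 in female. The median of the 93 was above its J3 value in J4 and near it in J4_moulting, while that of the 184 was near its J3 value in J4 and below it in J4_moulting.

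The median of the lowered set lay below its par_J2 value in all other stages. Of 737 members, 540 stood 2-fold or more below par_J2 in J4, 517 in J4_moulting, 408 in J4_female, 388 in male and 715 in female. The set was chosen for high values in par_J2, so lower values elsewhere follow in part from the choice. Its median transcript stood at 9.05 CPM in pre_J2, 53.1 in par_J2, 16.3 in J3, 21.9 in J4, 17.3 in J4_moulting and 22.6 in J4_female, and at 24.9 in male and 6.81 in female. Relative to J3, the same log2 ratio had a median of 0.24 in J4 (0.32 over all transcripts tested), 0.14 in J4_moulting (0.13), 0.43 in J4_female (0.14), 0.44 in male (-0.37) and -1.26 in female (-1.15). By this ratio the set lay near the whole table in female and above it in J4_female and male. J3 chose the set for low values, so a higher ratio follows in part from the choice. In female against J4_female, which did not choose the set, its median log2 fold change was -0.78, against -0.23 over all transcripts tested. Of the 737, 534 had their highest mean in par_J2, 104 in male, 62 in pre_J2 and 17 in J4_female. The 104 that were highest in male had a median of 12.8 CPM in J3, 36.9 in par_J2 and 57.3 in male, the stage by which they were sorted.

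**Figure D3:**
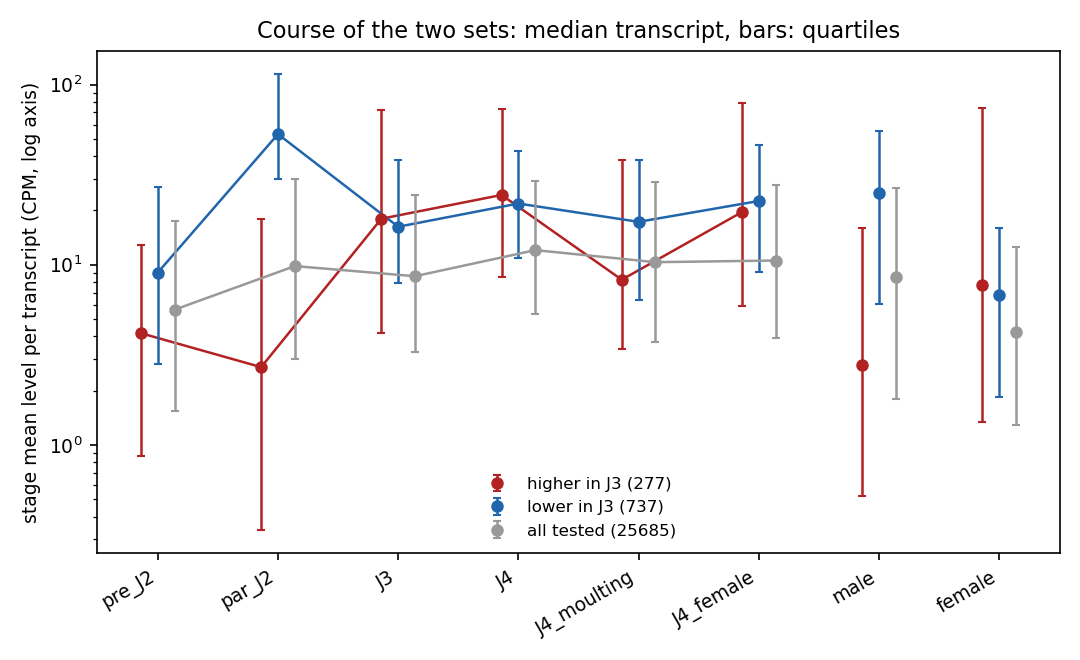
Points are the median over transcripts of the stage mean in CPM (log axis) and bars run from the lower to the upper quartile, for the 277 raised (red), the 737 lowered (blue) and all 25685 transcripts tested (grey); lines join the stages up to J4_female only. The raised set dips in J4_moulting, to 8.26 CPM, and in male, to 2.78 CPM, while the lowered set stays between 16.3 and 24.9 CPM after par_J2 except in female, at 6.81 CPM.

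Summed counts gave a different order of stages than the median transcript. The raised set held a median of 6.97% of the counts in J4, 1.84% in J4_moulting, 10.9% in J4_female, 0.664% in male and 15.0% in female, beside 17.9% in J3. The low values of J4_moulting were common to all its animals, with 3.70% as the highest of 14. The female libraries ranged from 10.0 to 20.3%. Without the genes of Mi_00696.1 and Mi_26885.1 the median share was 10.3% in female, 6.12% in J4_female and 4.00% in J4, against 6.30% in J3. The lowered set held a median of 3.26% in J4, 3.11% in J4_moulting, 3.42% in J4_female, 3.34% in male and 1.26% in female.

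Male libraries fell apart in the raised set. Replicates 2, 3 and 4 held 10.3, 6.0 and 8.04% of their counts in it, and replicates 1, 5, 6 and 7 between 0.546 and 0.664%. Most of this was Mi_25779.1, at 97776, 54826 and 76545 CPM in the first 3 and 13.3 to 199.9 CPM in the other 4. That transcript ran from 30.6 to 1637 CPM in J3 with a median of 84.1, and from 1.02 to 167.6 CPM in par_J2 with a median of 22.1, while pre_J2 stood at 1456 to 3475 CPM. The male comparison is therefore also given without those 3 libraries.

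**Figure D4:**
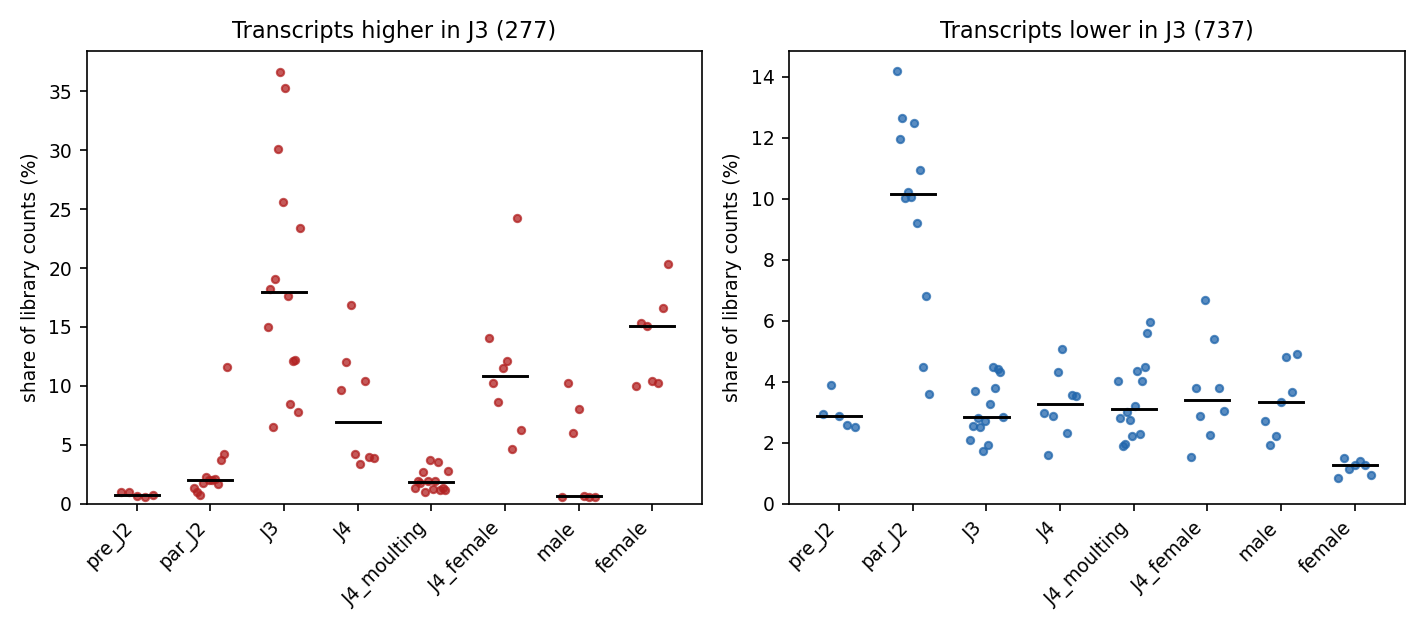
Each point is a library and each line the median of its stage, as the share of library counts (%) in the 277 raised (left) and the 737 lowered transcripts (right). The raised set is at 0.974 to 3.70% in every J4_moulting animal, and 3 male libraries at 6.0 to 10.3% lie apart from 4 below 1%.

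The 4 comparisons used to test the later course shared no library with J3 against par_J2. They were J4_moulting against J4, J4_female against J4_moulting, female against J4_female and male against J4_female. Each was fitted over all transcripts, and the members called were then counted beside the share of all transcripts called. Members that did not pass a comparison's filter on low counts are not in its counts. These were 3 to 54 of the raised set and 6 to 73 of the lowered set.

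A part of the raised set was lower in J4_moulting. In J4_moulting against J4, 54 of 274 raised transcripts tested were lower, 19.7%, against 3.41% of all transcripts, and 13 were higher, 4.74% against 5.09%. The median log2 fold change was -0.91 in the raised set and -0.04 over all 32417 transcripts tested. Of the lowered set 64 of 731 were lower again, 8.76% against 3.41%, and 22 were higher, 3.01% against 5.09%. With J4 replicates 7 and 8 left out, whose columns stand among those of J3 in the deposited table, 51 of 275 raised transcripts were lower, 18.5% against 2.67% of all transcripts in that fit, and 8 higher, 2.91% against 3.14%. The lowered set then had 39 of 732 lower, 5.33% against 2.67%, and 10 higher, 1.37% against 3.14%.

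Mi_00696.1 ran from 2.80 to 795.3 CPM in J4_moulting with a median of 23.9, and from 117.7 to 91936 CPM in J4 with a median of 3529 (log2 fold change -7.68, SE 1.31, edgeR adjusted p = 0.000664). The groups overlapped, as J4 replicates 4 and 6 were at 189.8 and 117.7 CPM. From the lowered set, Mi_09938.1 ran from 0 to 33.9 CPM in J4_moulting with a median of 2.96, and from 8.02 to 1823 CPM in J4 with a median of 314.4 (log2 fold change -6.32, SE 0.94, edgeR adjusted p = 0.000188). In the opposite direction, Mi_38644.1 of the raised set ran from 5.95 to 6673 CPM in J4_moulting and from 3.38 to 22.1 CPM in J4, so that only a part of the moulting animals showed the rise (log2 fold change 6.39, SE 1.46, edgeR adjusted p = 0.00675, but 0.190 by limma-voom). Its place in the raised set also rested on a part of the J3 animals. It ran from 4.48 to 2179 CPM in J3 with a median of 10.96. In par_J2 it ran from 0.514 to 47.6 CPM with a median of 9.703. Only J3 replicates 5, 9, 11, 12 and 14 lay above the highest par_J2 animal.

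In J4_female a part of the raised set was higher than in J4_moulting. In J4_female against J4_moulting, 52 of 274 raised transcripts were higher, 19.0%, against 2.46% of all transcripts, and 8 were lower, 2.92% against 3.41%. In the lowered set 15 of 725 were higher, 2.07% against 2.46%, and 7 were lower, 0.966% against 3.41%. This comparison shares its J4_moulting libraries with the one before, so their calls are not counted against each other. Its J4_female libraries are also those set against male and female, so these comparisons are not independent of each other. Mi_00696.1 ran from 21.1 to 68287 CPM in J4_female with a median of 19004, against the J4_moulting values above (log2 fold change 8.36, SE 1.36, edgeR adjusted p = 0.000480, but 0.0733 by limma-voom). J4_female replicates 3 and 5, at 21.1 and 44.5 CPM, lay within the J4_moulting range, and the other 6 lay above it. Mi_33722.1, the named lowered transcript that was higher, had a median of 222.0 CPM in J4_female and 71.3 CPM in J4_moulting, a log2 fold change of 1.36 (SE 0.41, edgeR adjusted p = 0.0472, but 0.156 by limma-voom).

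The transcripts of the raised set that were lower at the moult had higher levels in J4_female and female than in J4_moulting. Low values in J4_moulting helped to choose them, so higher levels elsewhere follow in part from the choice. The 54 had a median of 171.8 CPM in J4_female and 201.6 CPM in female, neither of which chose them, and 5.42 CPM in male. They stood at 23.8 CPM in par_J2, 99.4 in J3, 105.4 in J4 and 8.15 in J4_moulting. The 64 lowered transcripts that were lower at the moult had a median of 178.5 CPM in par_J2, 39.6 in J3, 41.8 in J4, 4.31 in J4_moulting and 14.9 in J4_female, and of 1.05 in male and 1.58 in female. Their J4_female median thus lay above that of J4_moulting and below that of J4.

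Many raised transcripts were lower in male. In male against J4_female, 57 of 223 raised transcripts tested were lower, 25.6%, against 2.29% of all transcripts, and 3 were higher, 1.35% against 4.34%. The median log2 fold change was -2.21 in the raised set and -0.05 over all 25450 transcripts tested. The lowered set was near the whole table, with 24 of 664 lower, 3.61% against 2.29%, and 22 higher, 3.31% against 4.34%. Without male replicates 2, 3 and 4 the raised set had 30 of 268 lower, 11.2% against 1.01% of all transcripts in that fit, and 0 higher against 1.68%. The lowered set then had 9 of 713 lower, 1.26% against 1.01%, and 7 higher, 0.982% against 1.68%. The 54 raised transcripts lower at the moult and the 57 lower in male come from comparisons with no library in common. Of them, 33 transcripts were in both, 62.3% of the 53 tested in both comparisons and 57.9% of the 57. In the lowered set 14 were in both, 26.9% of the 52 tested in both comparisons and 58.3% of the 24. The same overlap over all transcripts was not counted, so it is not shown to be particular to the raised set.

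Mi_00696.1 ran from 0.209 to 108.6 CPM in male with a median of 6.69, against 21.1 to 68287 CPM in J4_female (log2 fold change -10.20, SE 2.14, edgeR adjusted p = 0.0118, but 0.126 by limma-voom). From the lowered set, Mi_07345.1 ran from 0 to 2.37 CPM in male and from 1.29 to 517.9 CPM in J4_female (log2 fold change -7.21, SE 1.74, edgeR adjusted p = 0.0228, but 0.0830 by limma-voom). Mi_28157.1, also lowered in J3, ran from 13 to 3738 CPM in male with a median of 1108 and from 2.09 to 244.0 CPM in J4_female with a median of 6.35 (log2 fold change 6.06, SE 1.45, edgeR adjusted p = 0.0219). Mi_06632.1, of the raised set, ran from 136.6 to 549.1 CPM in male and from 0 to 102.2 CPM in J4_female, with no overlap (log2 fold change 3.79, SE 1.01, edgeR adjusted p = 0.0333). Without male replicates 2, 3 and 4 the edgeR adjusted p was 0.0543 for Mi_00696.1, 0.141 for Mi_28157.1 and 0.137 for Mi_06632.1.

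Members of both sets were also called in adult females. In female against J4_female, 18 of 258 raised transcripts were higher, 6.98%, against 3.65% of all transcripts, and 3 were lower, 1.16% against 0.734%. Of the lowered set 21 of 677 were lower, 3.10% against 0.734%, and 9 were higher, 1.33% against 3.65%. The median log2 fold change was -0.09 in the raised set, -0.78 in the lowered set and -0.23 over all 26006 transcripts tested. Mi_07026.1, of the raised set, ran from 901.2 to 6742 CPM in female with a median of 4747, and from 0 to 343.8 CPM in J4_female with a median of 15.4, with no overlap (log2 fold change 7.30, SE 1.52, edgeR adjusted p = 0.00793). Mi_04353.1, of the lowered set, had a median of 304.2 CPM in female and 84.0 CPM in J4_female (log2 fold change 2.91, SE 0.64, edgeR adjusted p = 0.0118).

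**Figure D5:**
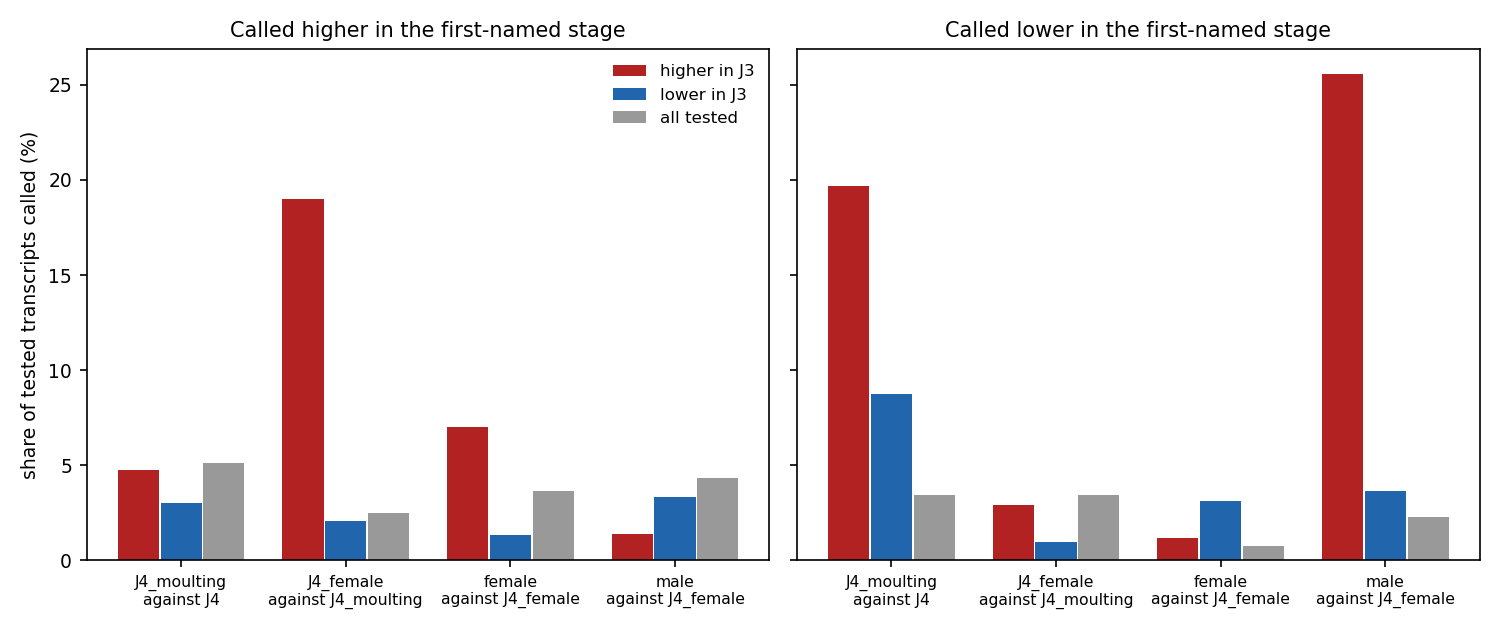
Bars give the share (%) of tested transcripts called higher (left) and lower (right) in the first-named stage of 4 comparisons, for the raised set (red), the lowered set (blue) and all transcripts tested (grey). Comparisons that name the same stage share its libraries. The raised set stands above the whole table for decreases in J4_moulting (19.7% against 3.41%) and male (25.6% against 2.29%) and for increases in J4_female against J4_moulting (19.0% against 2.46%).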

How the data were processed

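The deposited tables hold whole-number counts per transcript for 75 libraries, not normalized by the authors. The submitters' processing notes name HISAT2 2.2.1 and StringTie 2.2.1. Not given in the sources used here are the build, the annotation, the strand setting and the handling of near-identical copies, which are frequent in this polyploid genome, so a transcript with a close copy is uncertain. The full table of 45378 transcripts was used, with groups from the titles.

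edgeR 4.0.16 in R 4.3.3 was run per pair of stages with filterByExpr, TMM and the robust quasi-likelihood test. The standard error (SE) was taken as |log2 fold change| divided by the root of the F statistic. DESeq2 1.42.0 and limma 3.58.1 (voom with sample weights) were alternatives. Permutation and Fisher tests used Python 3.11.15 with scipy 1.17.1. The pipeline was tested on simulated counts.

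Named transcripts are the 2 per direction with the largest mean CPM in the higher stage, among those at 1 CPM or more in 80% of its libraries, and per later comparison and direction 1 of each set. For the presence test, on transcripts present in 6 or more of the 26 libraries, they have the smallest p outside the fold-change test. Not all such transcripts are printed, and Mi_25779.1 in male was chosen after its values were seen. Members, lists and rules were chosen with earlier results of these data known. Counts were deposited without molecular identifiers.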

Additional observations from a re-analysis of the deposited data

Results flagged for a closer look

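Of 34 groups of 7 or 8 libraries examined for a named transcript, 8 had a highest library far from the others by Dixon's test. Chance marks about 1 in 20 groups only for independent values with a normal spread. CPM were often skewed between animals and groups shared libraries, so the 8 cannot be set against that rate. Groups of more than 10 libraries, J3 and par_J2 among them, were not examined in this way. In J4, Mi_00267.1 stood at 1210 CPM in replicate 5 (next 6.45 CPM) and Mi_09938.1 at 1820 CPM in replicate 3 (next 481 CPM). In J4_female, replicate 4 held Mi_38644.1 at 78.8 CPM (next 28.4 CPM) and Mi_00267.1 at 96.2 CPM (next 20.1 CPM). J4_female replicate 8 held Mi_25779.1 at 6270 CPM (next 2380 CPM) and Mi_28157.1 at 244 CPM (next 11.3 CPM). J4_female replicate 6 held Mi_06097.1 at 10400 CPM (next 492 CPM), and female replicate 6 held Mi_25779.1 at 53.7 CPM (next 1.84 CPM).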

How the results depend on the processing

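Of the alternatives tried, none turned the direction of a named transcript, but many moved the counts by over 1.5 times, and the cause was not tested. For J3 against par_J2 the numbers called higher, lower, higher by 4-fold or more and lower by 4-fold or more (277, 737, 193 and 186 in the report) were 4925, 1218, 4765 and 433 with no filter on low counts. They were 2049, 2150, 1761 and 518 without par_J2 replicates 10 to 12, an alternative chosen after seeing the data, and 959, 182, 865 and 70 by limma-voom. DESeq2 gave 1024 higher and 692 higher by 4-fold or more, and a single fit of all libraries 3238 higher, 3170 higher by 4-fold or more and 288 lower by 4-fold or more. Leaving out 1 library at a time gave 165 to 596 higher, 529 to 913 lower, 104 to 455 higher by 4-fold or more and 143 to 238 lower by 4-fold or more. With the replicate number as a block, 281 were higher, 60 lower and 38 lower by 4-fold or more. The labels do not say whether equal numbers pair the samples. Of 12 same-numbered pairs, 1 deviated together with a correlation over 0.1 (range -0.155 to 0.121), and 0 J3 libraries correlated best with their own number. Such correlations between single animals cannot show that equal numbers share no host or batch.

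Presence in more J3 libraries was called for 730 transcripts with 1 CPM of unthinned counts, 1239 with 1 thinned count and 2235 without par_J2 replicates 10 to 12, and in more par_J2 libraries for 8 with unthinned counts and 16 without those replicates. In J4_moulting against J4, 8 raised transcripts were higher by limma-voom and 8 without J4 replicates 7 and 8, where 10 lowered transcripts were higher and 39 lower. In J4_female against J4_moulting, 0 raised and 0 lowered transcripts were lower by limma-voom, and 38 lowered transcripts were higher with DESeq2 size factors and 60 in the single fit. In female against J4_female, limma-voom called 48 raised transcripts higher and 9 lower and 28 lowered ones higher, and the single fit 5 raised and 51 lowered ones lower. In male against J4_female, the single fit called 9 raised transcripts higher and 155 lower, and 72 lowered ones higher and 117 lower. There limma-voom called 7 raised and 66 lowered ones higher. Without male replicates 2 to 4, also chosen after seeing the data, 0 raised transcripts were higher and 30 lower, and 7 lowered ones higher and 9 lower.

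Precision was lowest for rare transcripts: below 1 CPM the median standard error of the log2 fold change was 1.01, against 0.27 at 100 CPM or more, and the parts of depth and of spread between animals in this were not tested. Mi_01326.1 missed the 2-fold limit or the threshold in 13 of 35 settings; with the replicate number as a block its log2 fold change was -1.11 and its edgeR adjusted p 0.0785.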
